A study of Mus musculus with 35 samples.

Results

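Prss35, Mtus2, Trabd2b, Ptger1, Syt4 and Cdo1 are 6 genes that were lower in mouse kidney on loss of Flcn, or on loss of Flcn and Tfe3 together, among the 31053 genes counted in all 35 libraries. They were chosen by their log2 fold changes in the Flcn and Flcn/Tfe3 crosses, found by symbol in the deposited counts and joined by Ensembl identifier in every library. The values in those crosses therefore describe the choice and are given without a test. The Flcn/Tfeb cross had no part in the choice and was tested.

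FLCN, the folliculin protein lost in Birt-Hogg-Dubé syndrome, helps mTORC1 to hold the transcription factors TFEB and TFE3 in the cytoplasm by phosphorylation. Without FLCN both factors enter the nucleus, where they bind E-box motifs and mainly raise the transcription of lysosomal genes, so transcripts that fall on Flcn loss are the less studied side of this response. The 6 genes belong to different pathways. Prss35 encodes a secreted protein of the trypsin-like serine protease family, and Trabd2b encodes TIKI2, a membrane protease that cleaves and inactivates Wnt ligands. Ptger1 encodes EP1, a receptor for prostaglandin E2 that acts in the collecting duct on sodium and water handling. Mtus2 encodes a microtubule-associated protein that binds the plus-end protein EB1, and Syt4 encodes synaptotagmin 4, a vesicle protein of regulated secretion. Cdo1 encodes cysteine dioxygenase, which takes cysteine towards taurine and sulfate.

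The RNA came from whole kidneys of C57BL/6 mice at postnatal day 2 and was sequenced from the 3′ end of each transcript (QuantSeq). The labels give the genotypes only as KO or DKO of the named genes, and the alleles are given here from the study's methods. Flcn KO mice are Flcn flox/flox; Ksp-cre+, and 5 such libraries were compared with 5 controls. Flcn/Tfeb DKO mice carry flox/flox alleles of Flcn and of Tfeb with Ksp-cre+ (4 libraries, 3 controls), and Flcn/Tfe3 DKO mice are Flcn flox/flox; Ksp-cre+; Tfe3-/- (10 libraries, 8 controls). Every KO and DKO group thus shares the deletion of Flcn by Cre under the Ksp (Cdh16) promoter, which is active in collecting ducts, distal tubules and the thick ascending limb, whereas the Tfe3-/- allele does not depend on Cre. The labels name the controls only as those of each cross, and the study gives Flcn flox/flox mice as its controls. The labels call the libraries biological replicates. The Flcn/Tfe3 libraries came as 2 tables, set B (6 DKO, 3 controls) and set C (4 DKO, 5 controls), and the table was a term in their fit.

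The libraries held 1652649 to 4239356 reads on genes, with a median of 2992169. At this depth a count of 0 allows up to 3 counts, or a level of 0.708 to 1.82 CPM (counts scaled to a common library size), a limit that covers counting error only. The library sizes behind all other CPM values were scaled by TMM factors. The counts of the targeted genes did not separate the groups. Flcn was not lower in any cross (log2 fold changes of 0.088, 0.11 and 0.20). Called genes are those with an adjusted p under 0.05. Tfeb was not called in the Flcn/Tfeb cross (-0.73, standard error 0.38, adjusted p = 0.80 by edgeR), where its higher mean in controls rests mostly on control replicate 3 (18.8 CPM, against 6.66 and 8.97 CPM in the other 2 and 6.19 to 7.55 CPM in DKO libraries). Tfe3 was at 12.8 to 24.8 CPM in Flcn/Tfe3 DKO libraries and 15.5 to 25.2 CPM in their controls (-0.086, standard error 0.14, adjusted p = 0.94 by edgeR). A 3′ read need not cover a deleted exon, so these counts do not check the labels, and each group below means the libraries so labelled. Some libraries stood apart from others of their group. Flcn controls 4 and 5 had a mitochondrial share of 4.88% and 4.93%, against 9.98% to 11.1% in controls 1 to 3, and differed from these more (chi-square per degree of freedom 15.5 to 21.3) than from each other (4.01). Control 3 of the Flcn/Tfeb cross differed from the other 2 by 38.1 and 42.6, and these by 4.45 from each other. In set C, Flcn/Tfe3 control 6 differed from the other controls by 11.9 to 28.9, and these by 5.11 to 11.7 among themselves. In set B, DKO replicate 4 differed from the other DKO libraries by 8.49 to 19.2, and these by 4.27 to 12.6. All 5 thick ascending limb markers and all 6 principal cell markers examined were detected. Markers of another organ were present as well. The summed level of 6 adrenal cortex markers was 166 to 293 CPM in 7 of the 25 libraries of the Flcn/Tfeb and Flcn/Tfe3 crosses and at most 36.5 CPM in the other 18. The 7 libraries are 1 of 3 Flcn/Tfeb controls, 1 of 4 Flcn/Tfeb DKO, 3 of 8 Flcn/Tfe3 controls and 2 of 10 Flcn/Tfe3 DKO, and the values without them are given below. In whole kidney RNA, fewer cells of a type and less RNA per cell cannot be told apart.

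The promoters of the genes at the head of the Flcn decrease are shown because TFEB and TFE3 act through E-boxes. RefSeq (GRCm38.p6) gave the 250 bases before the start of Prss35, at chr9:86743383-86743632 on the plus strand, and those before 2 starts of Mtus2, at chr5:147957070-147957319 and chr5:148264967-148265216, also on the plus strand. The first Mtus2 start is that of the long transcript and the second lies inside the gene. Capitals mark a match to the general E-box CANNTG, searched on both strands.
Prss35: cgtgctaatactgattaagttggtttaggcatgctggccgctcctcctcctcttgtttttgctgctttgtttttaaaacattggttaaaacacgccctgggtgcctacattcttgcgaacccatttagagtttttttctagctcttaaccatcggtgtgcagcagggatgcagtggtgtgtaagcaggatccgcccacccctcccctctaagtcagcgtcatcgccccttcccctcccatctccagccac
Mtus2, first start: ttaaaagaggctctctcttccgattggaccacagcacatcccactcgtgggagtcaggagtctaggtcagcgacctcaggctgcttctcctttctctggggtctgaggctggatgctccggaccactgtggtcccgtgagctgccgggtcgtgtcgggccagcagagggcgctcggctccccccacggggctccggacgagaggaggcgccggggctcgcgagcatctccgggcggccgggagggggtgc
Mtus2, second start: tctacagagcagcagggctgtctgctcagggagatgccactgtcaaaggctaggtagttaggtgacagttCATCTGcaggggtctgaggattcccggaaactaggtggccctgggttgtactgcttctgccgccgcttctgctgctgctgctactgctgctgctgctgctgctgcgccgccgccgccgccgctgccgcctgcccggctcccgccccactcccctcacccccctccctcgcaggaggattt
None of these 3 windows holds CACGTG, the core of the motif bound by the MiT/TFE factors, or the longer CLEAR consensus, which contains it. Of 32851 mouse promoters of the same length, 6.02% hold CACGTG, 0.24% the CLEAR consensus, 12.3% CATGTG and 66.2% any CANNTG, a pattern that includes the other motifs. The Prss35 window and the first Mtus2 window hold no CANNTG. The second Mtus2 window holds 1, CATCTG, starting 180 bases before the start. These are descriptions of the letters in these windows only.

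Prss35 (ENSMUSG00000033491, chr9:86743649-86758443 of GRCm38, plus strand) was among the genes with the largest decrease in the Flcn cross. The 5 Flcn KO libraries had 1.47, 1.74, 1.86, 1.91 and 2.66 CPM, and the 5 controls 8.20, 7.39, 12.4, 6.49 and 6.22 CPM. Every Flcn KO library lay below every control, but the KO values rest on 3 to 9 counts per library, close to the floor. The fitted log2 fold change was -1.99 (standard error 0.32), a level 74.8% lower, and only 1 of the 11932 genes tested had a lower one.

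Mtus2 (ENSMUSG00000029651, chr5:147957320-148316065, plus strand) was lower in the same comparison. Its levels were 5.38, 3.76, 7.44, 3.82 and 2.96 CPM in Flcn KO and 12.5, 11.1, 17.8, 13.7 and 8.59 CPM in controls. The groups again did not overlap, with the highest KO library, replicate 3, just under the lowest control. On the log2 scale the fold change was -1.44 (standard error 0.29), 63.0% lower, and it lay between -1.68 and -1.29 when each library was left out in turn.

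Trabd2b (ENSMUSG00000070867, chr4:114406724-114615098, plus strand) had a smaller and more even decrease. Flcn KO libraries had 36.7, 39.4, 34.2, 36.3 and 43.2 CPM and controls 48.7, 55.9, 54.4, 65.6 and 54.8 CPM, with 57 to 263 counts behind each value. All KO libraries lay below all controls. The fit gave a log2 fold change of -0.56 (standard error 0.12), a level at 0.68 of that of the controls.

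These are the 3 of the 6 genes without overlap between Flcn KO and control libraries, as were 0.712% of all genes tested in that direction. The count describes the choice of the genes. With each of the 10 libraries left out in turn, all 3 log2 fold changes were below 0. Without control 4 or control 5, which stood apart, they were -2.06 or -2.07 for Prss35, -1.39 or -1.56 for Mtus2 and -0.49 or -0.57 for Trabd2b.

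The other 3 genes overlapped between Flcn KO and control libraries. Ptger1 (ENSMUSG00000019464, chr8:83666678-83672753, plus strand) had 16.1, 27.5, 28.3, 22.3 and 26.0 CPM in Flcn KO and 40.5, 31.4, 44.2, 27.2 and 38.8 CPM in controls. Control replicate 4 lay inside the KO range and the other controls above it, with a log2 fold change of -0.57 (standard error 0.18). This is the size of the Trabd2b change, with a larger standard error.

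Cdo1 (ENSMUSG00000033022, chr18:46713193-46728395, minus strand) had 40.1, 59.4, 59.2, 43.3 and 53.0 CPM in Flcn KO and 48.2, 60.1, 62.0, 55.6 and 74.3 CPM in controls. Here 3 of 5 controls lay above all KO libraries and 2 of 5 KO libraries below all controls, and the log2 fold change was -0.23 (standard error 0.14), or -0.13 without control 5. Syt4 (ENSMUSG00000024261, chr18:31437808-31447406, minus strand) had 2.94, 1.74, 6.32, 7.01 and 5.92 CPM in Flcn KO and 3.86, 4.16, 3.77, 2.74 and 1.78 CPM in controls, from 6 to 20 counts. Its counts were too low for the filter in this cross. Its 3 highest libraries were Flcn KO, and without the filter its log2 fold change was 0.56, so Syt4 owes its place among the 6 genes to the Flcn/Tfe3 cross alone.

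**Figure D1:**
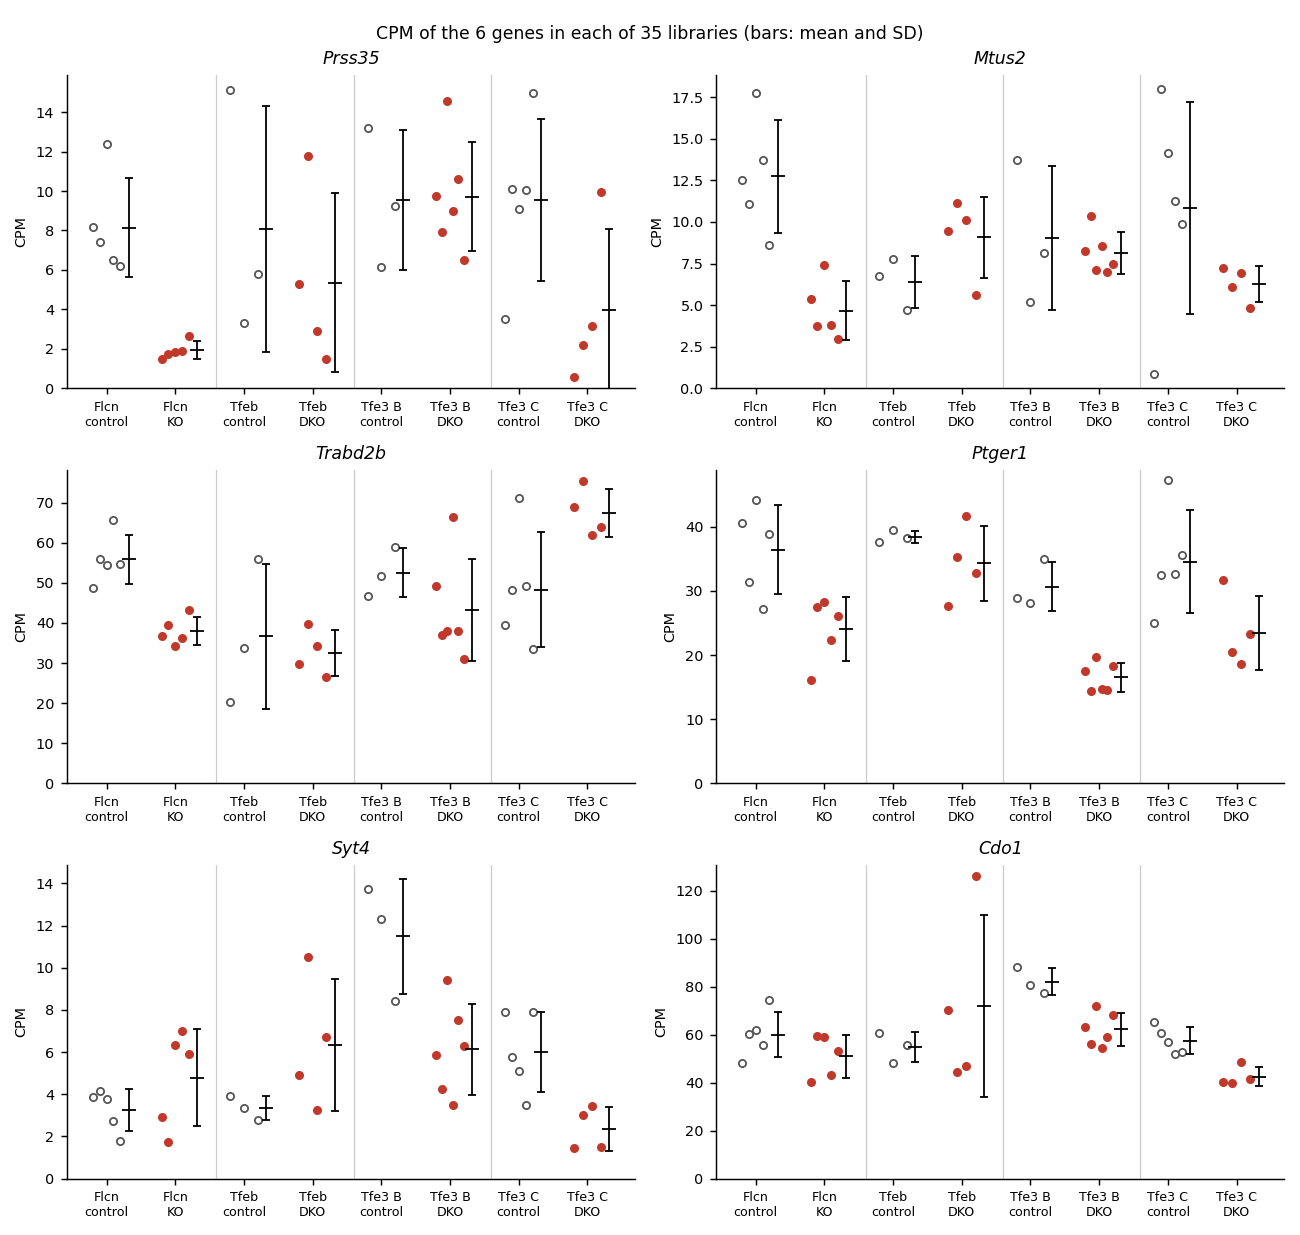
CPM (linear axis from 0) of each gene in each library, as open circles for controls and filled circles for Flcn KO or DKO, with the mean and SD of each group beside them; Flcn and Tfeb mark the Flcn and Flcn/Tfeb crosses, and Tfe3 B and Tfe3 C the sets of the Flcn/Tfe3 cross. The Flcn KO libraries sit below all their controls for Prss35, Mtus2 and Trabd2b, and the set C DKO libraries sit below all their controls for Syt4 and Cdo1.

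In the Flcn/Tfe3 cross the order of the genes was different. Syt4, Ptger1 and Prss35 had the lowest log2 fold changes, and Trabd2b was the 1 gene above 0. The log2 fold changes of all genes but Trabd2b were below 0 with each of the 18 libraries left out in turn. None of the 6 genes separated all 10 DKO libraries from all 8 controls, as 0.00803% of genes did. Within set B, Ptger1 and Cdo1 separated the groups, as did 1.28% of genes, and within set C Syt4 and Cdo1 did, as did 2.27% of genes.

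Ptger1 had 14.3 to 19.7 CPM in the 6 set B DKO libraries (median 16.1) and 28.9, 28.1 and 35 CPM in the 3 controls. In set C it had 31.6, 20.4, 18.5 and 23.2 CPM in DKO libraries and 25.0, 32.4, 47.2, 32.6 and 35.5 CPM in controls. Set B was thus fully separated, and in set C DKO replicate 7 lay among the controls. The fitted log2 fold change was -0.72 (standard error 0.14) over both sets, 39.4% lower. Set B gave -0.89, and set C -0.60. Without control 6, which stood apart and had the highest Ptger1 level of the set C controls, the value over both sets was -0.67.

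Syt4 had 3.50 to 9.41 CPM in set B DKO libraries (median 6.06) and 13.7, 12.3 and 8.41 CPM in their controls. In set C the DKO libraries had 1.45, 3.04, 3.46 and 1.51 CPM and the controls 7.90, 5.76, 5.08, 3.49 and 7.89 CPM. Only DKO replicate 3 overlapped the controls in set B, and no library did in set C, where the highest DKO and the lowest control were nearly level. Its log2 fold change of -1.08 (standard error 0.25) was the largest decrease of the 6 genes in this cross. Set B gave -0.91 and set C -1.37. Of its exonic bases 14.5% are shared with Gm26658 on the opposite strand, which had at most 1 count in any library. The strand setting of the counting is not given in the sources used here.

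Syt4 is also expressed in neuroendocrine cells, and the levels of 8 chromaffin and neuron markers varied between these libraries. Their sum was 15.5 to 232 CPM in set B controls and 10.3 to 224 CPM in set B DKO libraries, and 5.13 to 151 CPM in set C controls against 9.74 to 20.2 CPM in set C DKO libraries. In set B the 2 controls and the DKO library with the highest Syt4 all had over 100 CPM of these markers, whereas in set C the controls highest in Syt4 did not. Without the 7 libraries rich in adrenal cortex markers, 5 of which are in this cross, the log2 fold change of Syt4 was -1.13. Those of Ptger1 and Cdo1 were then -0.67 and -0.43, with 8 DKO libraries and 5 controls. In every such value of this cross, control 3 was the only set B control that remained.

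**Figure D2:**
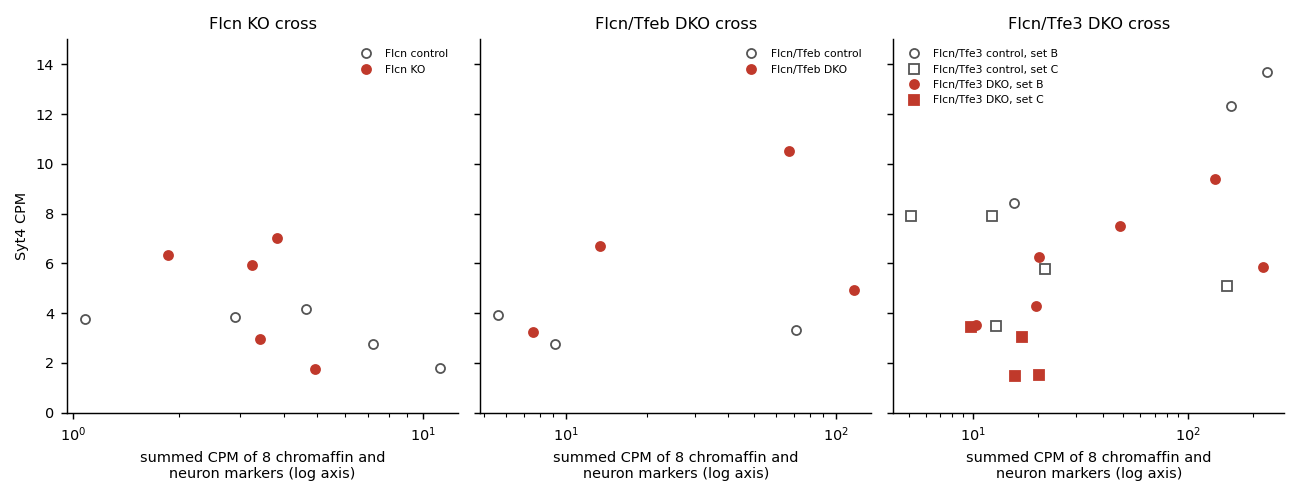
Syt4 CPM of each library (vertical axis, linear) against the summed CPM of 8 chromaffin and neuron markers (horizontal axis, log scale), 1 panel per cross, with controls open, Flcn KO or DKO filled, and squares for set C. The sums stay at or below 11.3 CPM in the Flcn cross and reach 232 CPM in the Flcn/Tfe3 cross, where the set C DKO libraries with 1.45 to 3.46 CPM of Syt4 have 9.74 to 20.2 CPM of the markers.

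Cdo1 had a smaller relative decrease than Ptger1 and Syt4, of like size in both sets. Set B DKO libraries had 54.3 to 71.8 CPM (median 61.2) against 88.4, 80.6 and 77.4 CPM in controls, and set C DKO libraries had 40.3, 39.7, 48.4 and 41.6 CPM against 65.4, 60.5, 57, 51.9 and 52.9 CPM. The groups did not overlap in either set, although the set B DKO libraries lay at the level of the set C controls. On the log2 scale the fold change was -0.42 (standard error 0.089), 25.2% lower, and the sets gave like values of -0.40 (B) and -0.47 (C). Cdo1 is high in fat, and the summed level of 5 adipocyte markers was 183 to 291 CPM in set B controls and 206 to 356 CPM in set B DKO libraries. In set C it was 235 to 597 CPM in controls and 248 to 266 CPM in DKO libraries. Nearly all of this sum is Fabp4, with means over both sets of 266 CPM in DKO libraries and 374 CPM in controls. Adipoq was at 7.44 and 8.28 CPM and Plin1 at 3.96 and 3.54 CPM, so the sum is mostly the level of 1 gene. The part of these markers in the Cdo1 decrease was not tested.

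Prss35, Mtus2 and Trabd2b, which did not overlap in the Flcn cross, had fold changes that differed between the sets of the Flcn/Tfe3 cross. Prss35 had 6.51 to 14.5 CPM in set B DKO libraries (median 9.36) against 13.2, 6.16 and 9.23 CPM in controls. In set C it had 0.580, 2.21, 3.14 and 9.95 CPM in DKO libraries against 3.51, 10.1, 9.08, 10.1 and 15 CPM in controls. Set B showed full overlap, and in set C DKO replicates 7, 8 and 9 lay below all controls while replicate 10 lay among them. Its log2 fold change was 0.027 in set B, -1.31 in set C and -0.58 (standard error 0.35) over both, or -0.93 without the libraries rich in adrenal cortex markers. The value over both sets ran from -0.83 without DKO replicate 10 to -0.38 without DKO replicate 7, whose level rests on 2 counts.

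Mtus2 had 6.99 to 10.4 CPM in set B DKO libraries (median 7.88) against 13.7, 5.18 and 8.14 CPM in controls. In set C it had 7.25, 6.07, 6.92 and 4.83 CPM in DKO libraries against 0.877, 18, 14.2, 11.2 and 9.86 CPM in controls. The set C groups would be separate but for control replicate 4, whose value rests on 2 counts. The fitted log2 fold change was -0.15 in set B, -0.79 in set C and -0.45 (standard error 0.29) over both, or -0.43 without the libraries rich in adrenal cortex markers.

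For Trabd2b the fold changes of the sets had opposite signs. Set B DKO libraries had 31.1 to 66.3 CPM (median 38.0) against 46.8, 51.8 and 58.9 CPM in controls. The highest of these DKO libraries was replicate 4, which stood apart. Set C DKO libraries had 68.8, 75.3, 61.9 and 63.9 CPM against 39.5, 48.3, 71.2, 49.2 and 33.5 CPM. In set B 4 of 6 DKO libraries lay below all controls, and in set C all DKO libraries lay above 4 of the 5 controls. They gave log2 fold changes of -0.27 in set B, 0.44 in set C and 0.11 (standard error 0.16) over both. The last value ran from 0.038 without control 8 to 0.20 without control 3 and was 0.17 without control 6, the highest of the set C controls, and 0.30 without the libraries rich in adrenal cortex markers. The sets also differed in other ways. The summed level of 3 red blood cell markers in set C was 1027 to 1393 CPM in DKO libraries and 1547 to 5719 CPM in controls, without overlap, whereas in set B the ranges were 2411 to 4747 and 2608 to 4486 CPM. In set C the 5 thick ascending limb markers summed to 1055 to 1115 CPM in DKO libraries and 810 to 1032 CPM in controls. The smooth muscle markers summed to 621 to 657 CPM and 480 to 595 CPM. Both sums were higher in the DKO libraries, also without overlap. Neither list separated the groups of set B. The mitochondrial share of counts was 2.72% to 4.27% in set C DKO libraries and 3.01% to 7.80% in their controls. Their part in the Trabd2b values was not tested.

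**Figure D3:**
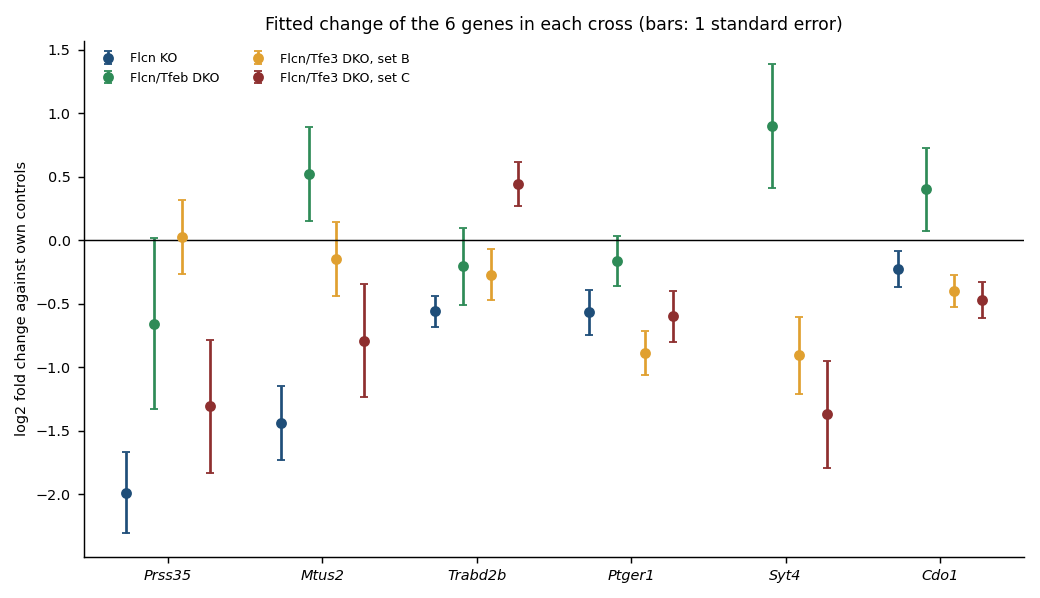
Fitted log2 fold change of each gene against the controls of its own cross or set (vertical axis), with bars of 1 standard error and 1 colour per comparison. Syt4 has no Flcn KO point because it did not pass the filter there, Prss35 runs from -1.99 in the Flcn cross to 0.027 in set B, and of the 4 comparisons drawn Trabd2b is above 0 in set C alone.

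In the Flcn/Tfeb cross, the comparison that had no part in the choice, none of the 6 genes was called lower or higher. None of the 12469 genes tested was called (0% of genes) by the quasi-likelihood test of edgeR, nor by DESeq2 or the likelihood ratio test, while 5.07% (632 genes) had an unadjusted p under 0.05. None of the 6 genes was among these 632. None had every DKO library below every control, as 2.94% of genes did. None had every DKO library above every control, a direction for which no share of all genes is given. The log2 fold changes of 3 genes were below 0 and those of 3 above. With 35 ways of dividing the 7 libraries, the exact two-sided permutation test of a gene can give no p below 0.0286.

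Prss35 had 5.29, 11.8, 2.89 and 1.49 CPM in Flcn/Tfeb DKO libraries and 15.1, 3.33 and 5.80 CPM in controls. Both groups spread over a wide range and overlapped. On the log2 scale the fold change was -0.65 with a wide 95% interval from -2.13 to 0.82, which includes no change (adjusted p = 0.82 by edgeR, exact permutation p = 0.486). It ran from -1.28 without DKO replicate 2 to 0.10 without control replicate 1, and was -1.02 without the 2 libraries of this cross rich in adrenal cortex markers.

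Mtus2 had 9.44, 11.1, 10.1 and 5.58 CPM in DKO libraries and 6.73, 7.77 and 4.70 CPM in controls. Here 3 of 4 DKO libraries lay above all controls. Its log2 fold change was 0.52 with a 95% interval from -0.29 to 1.33 (adjusted p = 0.80 by edgeR, exact permutation p = 0.171). With 1 library left out it ran from 0.30, without control replicate 3, to 0.71, without DKO replicate 4, and it was 0.67 without the adrenal-rich libraries. For this and the other genes, the difference between the crosses was not tested, because the Flcn and Flcn/Tfe3 crosses chose the genes. The Mtus2 controls of the Flcn/Tfeb cross, at 4.70 to 7.77 CPM, lay below all 5 Flcn controls, at 8.59 to 17.8 CPM, each scaled within its own cross.

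Trabd2b had 29.8, 39.6, 34.4 and 26.4 CPM in DKO libraries and 20.2, 33.9 and 55.8 CPM in controls. The DKO libraries lay wholly inside the spread of the controls. The fitted log2 fold change was -0.21 with a 95% interval from -0.88 to 0.46 (adjusted p = 0.86 by edgeR, exact permutation p = 0.886), and it ran from -0.49 without control replicate 1 to 0.26 without control replicate 3. Without the adrenal-rich libraries it was -0.21. Control replicate 3 also had the lowest mitochondrial share of the cross, 4.47% against 9.16% to 11.9% in the others, and its part in the result was not tested.

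Ptger1 had 27.6, 35.3, 41.6 and 32.7 CPM in DKO libraries and 37.6, 39.4 and 38.1 CPM in controls. In this gene 3 DKO libraries were below the narrow range of the controls and 1 above it. On the log2 scale the fold change was -0.16 with a 95% interval from -0.59 to 0.27 (adjusted p = 0.84 by edgeR, exact permutation p = 0.286). It was -0.27 without DKO replicate 3, -0.064 without DKO replicate 1 and -0.042 without the adrenal-rich libraries.

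Syt4 had 4.91, 10.5, 3.26 and 6.69 CPM in DKO libraries and 3.92, 3.33 and 2.76 CPM in controls, from 6 to 18 counts. It had the highest log2 fold change of the 6 genes, 0.90 with a 95% interval from -0.17 to 1.97 (unadjusted p = 0.091 and adjusted p = 0.80 by edgeR, exact permutation p = 0.143), with 3 of 4 DKO libraries above all controls. With 1 library left out it ran from 0.60, without DKO replicate 2, to 1.13, without DKO replicate 3. The chromaffin and neuron markers summed to 7.60 to 116 CPM in these DKO libraries and 5.61 to 71.0 CPM in controls. Without the 2 libraries of this cross rich in adrenal cortex markers the log2 fold change was 1.02.

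Cdo1 had 70.2, 44.6, 47.0 and 126 CPM in DKO libraries and 60.6, 48.3 and 55.6 CPM in controls. DKO replicate 4 was the highest of all 35 libraries, and 2 DKO libraries lay below all controls. Its log2 fold change was 0.40 with a 95% interval from -0.33 to 1.13 (adjusted p = 0.80 by edgeR, exact permutation p = 0.714), and it ran from -0.014 without DKO replicate 4 to 0.57 without DKO replicate 2. Without the adrenal-rich libraries it was 0.34.

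**Figure D4:**
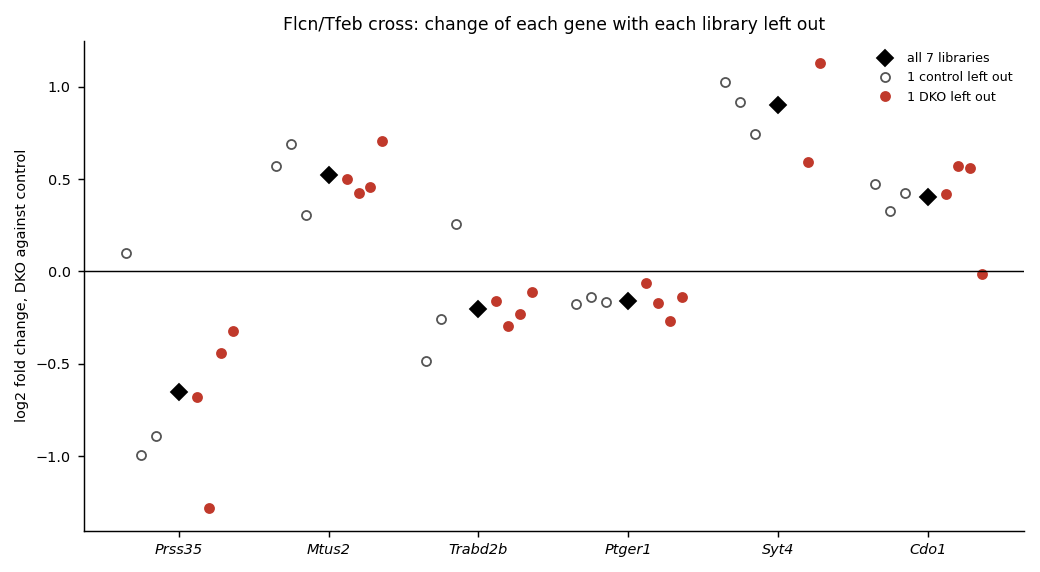
Log2 fold change of each gene in the Flcn/Tfeb cross (vertical axis) with all 7 libraries as a diamond, with 1 control left out as open circles and with 1 DKO library left out as filled circles. Prss35, Trabd2b and Cdo1 cross 0 when 1 library is left out, Mtus2, Ptger1 and Syt4 do not, and Syt4 has 2 points fewer because it then failed the filter on low counts.

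**Figure D5:**
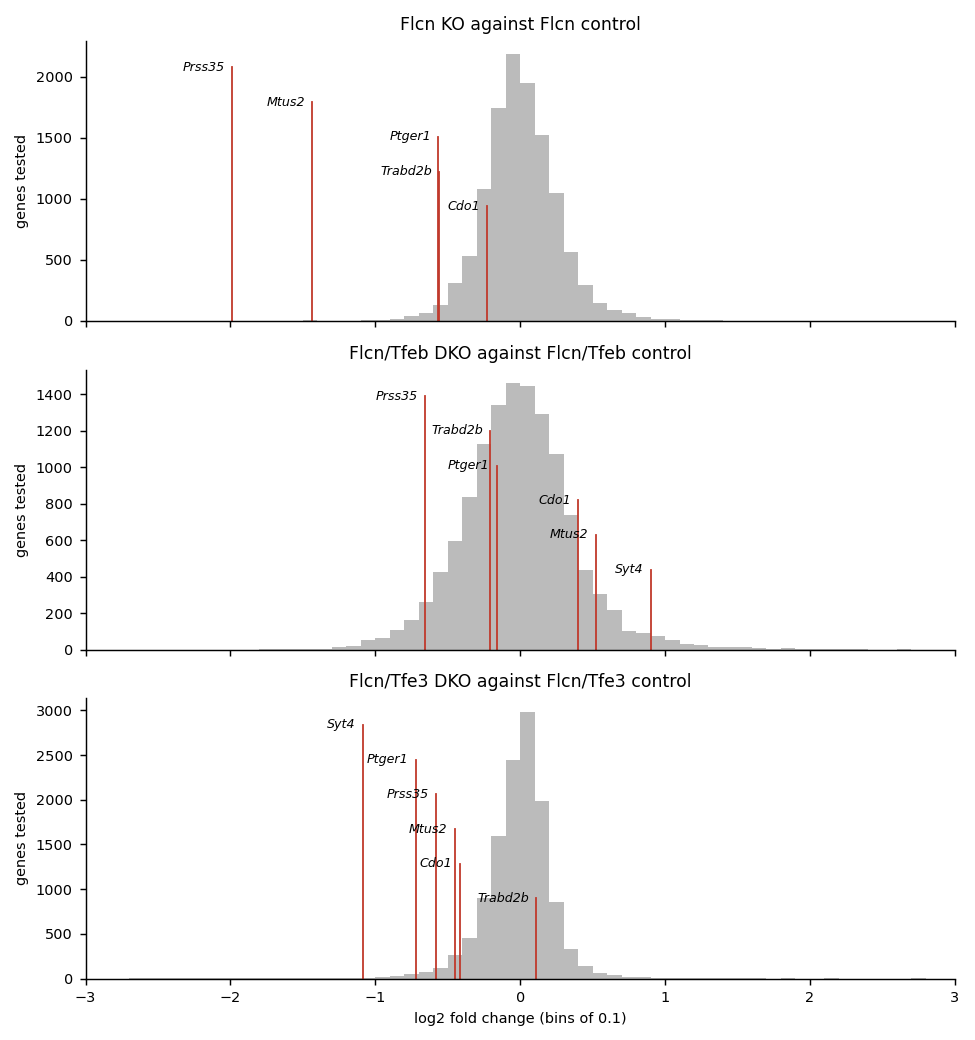
Number of genes (vertical axis) by log2 fold change in bins of 0.1 (horizontal axis, shown from -3 to 3) for each cross, with the tested genes of the 6 as red lines. Prss35 and Mtus2 stand far out on the low side in the Flcn cross, and the lines fall on both sides of 0 in the Flcn/Tfeb cross. In the Flcn/Tfe3 cross Syt4 and Ptger1 lie in the low tail, with 0.43% and 1.15% of genes at or below them.

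The plot of all genes shows how wide each comparison is. Between the 5th and 95th percentile, the log2 fold changes of all genes ran from -0.40 to 0.43 in the Flcn cross, from -0.63 to 0.62 in the Flcn/Tfeb cross and from -0.40 to 0.30 in the Flcn/Tfe3 cross. The median of all genes was within 0.02 of 0 in each. In the Flcn/Tfeb cross, 4.37% of genes were at or below Prss35 and 97.8% at or below Syt4.

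Lists of pathway partners held 4 genes that were called in the Flcn or Flcn/Tfe3 cross, beside 0.52% and 0.385% of all genes tested, or 0.067% and 0.0401% in the lower direction. Over all genes, 54 of the 62 called in the Flcn cross and 43 of the 48 in the Flcn/Tfe3 cross were higher. Of 14 genes of prostaglandin E2 synthesis, transport and reception, 12 were tested, and only Ptger3, the EP3 receptor that opposes vasopressin in the distal nephron, was called. It rose in the Flcn cross (log2 fold change 1.12, standard error 0.20, adjusted p = 0.011 by edgeR) and in the Flcn/Tfe3 cross (1.09, standard error 0.19, adjusted p = 0.0031 by edgeR), the same crosses in which the values of Ptger1 were lower. The list medians were 0.13 and 0.013, beside -0.0074 and 0.0090 for all genes.

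Of 32 extracellular Wnt regulators 24 were tested, and only Sostdc1, a secreted inhibitor of Wnt and BMP signals, was called. It rose in the Flcn cross (log2 fold change 0.74, standard error 0.11, adjusted p = 0.0015 by edgeR) and in the Flcn/Tfe3 cross (0.50, standard error 0.094, adjusted p = 0.0080 by edgeR). Of 16 extracellular serine proteases 14 were tested. In the Flcn cross Htra3 rose (0.64, standard error 0.14, adjusted p = 0.049 by edgeR) and Klk1, tissue kallikrein made in the connecting tubule, fell (-1.43, standard error 0.23, adjusted p = 0.0032 by edgeR), so Klk1 was the 1 list gene called in the direction of Prss35.

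No gene was called in any cross among 25 genes of cysteine and taurine metabolism (21 to 23 tested), 16 genes of microtubule plus ends (14 or 15 tested) and 31 synaptotagmins and SNARE proteins (20 or 21 tested). In the Flcn/Tfeb cross no gene of the 6 lists was called. The genes with the highest absolute log2 fold change there were Abcc4 (-0.38), a prostaglandin exporter, Dkk1 (-0.86), a Wnt inhibitor, Klk1 (-1.02), Bhmt (1.87), which remethylates homocysteine, Mtus1 (0.49), a relative of Mtus2, and Syt1 (1.09), the synaptic vesicle calcium sensor. Their adjusted p lay between 0.80 and 0.81 by edgeR. The list medians ran from -0.21 to 0.20, beside -0.017 for all genes.

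The 6 genes shared little of their variation from library to library. After the mean of each group within its set was subtracted from log2 CPM, the correlations of the 15 pairs ran from -0.32 to 0.33 with a median of 0.021, and 8 were above 0. The 3 genes most correlated with each were picked from 11707 genes compared, all sharing the same libraries and depths. As the highest of so many, their correlations cannot be set against those of the 15 pairs. For Trabd2b these were Lamc1, a laminin chain (r = 0.84), R3hdm4 (0.84) and Aplp2 (0.81), and for Mtus2 they were Wdr44, Fignl2 and Tcf25 (0.74, 0.74 and 0.73). For Syt4 they were Emc7, Dnlz and Abhd13 (0.75, 0.68 and 0.68), and for Cdo1 Paqr7, Retreg1 and Scd1 (0.63, 0.62 and 0.61). By ranks (Spearman) the correlation of Cdo1 with Scd1, a fatty acid desaturase gene, was only 0.34, against 0.52 with Paqr7 and 0.53 with Retreg1. For Prss35 they were C1qa, Alkbh3 and Ccpg1 (0.62, 0.59 and 0.57), and for Ptger1 Foxs1, Zfp13 and Grin3a (0.61, 0.59 and 0.57). These are descriptions over libraries, without a test.

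Some cell type markers differed between the groups in the crosses in which the 6 genes were chosen. Of 5 thick ascending limb markers Umod alone was called, and it rose in the Flcn cross (mean 489 CPM against 244 CPM in controls, adjusted p = 0.00040 by edgeR) and in the Flcn/Tfe3 cross (310 against 183 CPM, adjusted p = 0.00022 by edgeR). The other 4 had log2 fold changes of -0.29 to 0.38 in the Flcn cross and -0.19 to 0.26 in the Flcn/Tfe3 cross. The list summed to 1269 to 1663 CPM in Flcn KO libraries against 886 to 1310 CPM in controls, and in set B to 873 to 1329 CPM in DKO libraries against 858 to 1053 CPM in controls. Of 6 principal cell markers Scnn1b alone was called, higher in the Flcn cross (log2 fold change 0.58, adjusted p = 0.049 by edgeR). In that cross 5 of the 6 had log2 fold changes above 0, with a list median of 0.21. The exception was Aqp2, the most abundant of them, at -0.48 (not called). The median sum of the list, to which Aqp2 gave the most, was 396 CPM in Flcn KO libraries and 419 CPM in controls, with overlap. The 5 podocyte markers summed to 314 to 368 CPM in Flcn KO libraries and 380 to 408 CPM in controls, with none called. The intercalated cell markers called were Atp6v1g3 in the Flcn cross and Atp6v0d2 in both crosses. The 5 markers of that list summed to 328 to 445 CPM in Flcn KO libraries against 133 to 196 CPM in controls, with 2 of 5 called higher by edgeR, and to 248 to 404 CPM in Flcn/Tfe3 DKO libraries against 144 to 254 CPM in controls, with 1 of 5 called higher. In the Flcn/Tfeb cross the sums were 227 to 238 CPM in DKO libraries and 157 to 203 CPM in controls, and none was called. The log2 fold changes of the list there ran from -1.01 to 0.43, with 3 of 5 above 0. In the Flcn cross Atp6v1g3 gave most of the sum (mean 281 CPM in KO libraries against 114 CPM in controls). The markers of the list not called had log2 fold changes of -0.22 to 0.83 in the Flcn cross and 0.061 to 0.69 in the Flcn/Tfe3 cross. None of the 5 was at 0 in any cross. The part of these markers in the values of the 6 genes was not tested. The adrenal cortex markers summed to at most 5.73 CPM in the Flcn cross.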

How the data were processed

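The authors trimmed the reads (bbduk in the study's methods, Trim Galore in the submitters' processing notes), used STAR for alignment to mm10 and HTSeq-count for counting reads on genes. The deposited values are these whole-number counts, without normalization, and 1 column that holds no count was not used. Of the identifiers, 99.6% are in GENCODE M21. Genes passing filterByExpr were fitted in edgeR 4.0.16 (R 4.3.3) with TMM factors and the two-sided quasi-likelihood test, separately for each cross, with Benjamini-Hochberg adjustment over all genes tested and a threshold of 0.05. Permutation tests used log2(CPM + 0.5), and log2 CPM a prior count of 2. Pairs of libraries within a group differed beyond sampling noise (chi-square per degree of freedom 2.85 to 42.6, median 7.81, over 63 pairs). This compares them with counting noise only. Each library counts as 1 replicate because the labels call the libraries biological replicates. Each fit was also run on simulated data with 200 genes changed 2-fold. The outcome is not reported here, so nothing is said of the power of any fit. The 6 genes and all gene lists were chosen with earlier results of these data known. The genes named are the 6, the genes targeted, a gene overlapping Syt4, called genes of the 6 pathway lists, each list's gene with the highest absolute change in the Flcn/Tfeb cross, and the 3 genes most correlated with each of the 6. The cell type markers named were chosen after their values were seen. The alternatives were RLE factors, DESeq2 1.42.0, the likelihood ratio test, other filters, the replicate number as a block, Xist as a covariate, other choices of libraries and each library left out. Leaving out libraries rich in adrenal cortex markers (over 100 CPM), and the motifs CATGTG and CANNTG, were added after the data were seen. Sequences are from RefSeq (GRCm38.p6), matched by symbol and printed for 2 of the 6 genes, Prss35 and Mtus2. Some items are not reported here.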

Additional observations from a re-analysis of the deposited data

Results flagged for a closer look

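Trabd2b moved in opposite directions in 2 comparisons. All 5 Flcn KO libraries lay below the mean of their controls on the log2 CPM scale (mean -0.55, range -0.69 to -0.36), and all 4 Flcn/Tfe3 DKO libraries of set C lay above the mean of theirs (mean 0.52, range 0.40 to 0.68). The difference between the means was -1.07 and was not tested. The rise belongs to set C alone, where the highest control, at 71.2 CPM, lay inside the DKO range. Set B gave a log2 fold change of -0.27, and both sets together 0.11 (standard error 0.16). No single library was flagged in the 36 groups examined (6 groups of 4 to 6 libraries within a set, for each of the 6 genes). The rule set the gap to the next library against the range. In groups this small it can miss a distant library, and it did not flag Cdo1 in Flcn/Tfeb DKO replicate 4 (126 CPM).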

How the results depend on the processing

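In the Flcn cross the 5 genes tested stayed below 0 under every alternative, and in the Flcn/Tfe3 cross 5 of 6 were below 0 under each, the exception being Trabd2b or, in set B alone, Prss35. The number of genes called in the Flcn cross, 62, was 113 with DESeq2, 132 with the likelihood ratio test, 95 without a filter and 37 to 58 with each library left out. The 48 of the Flcn/Tfe3 cross became 96 with DESeq2, 88 with the likelihood ratio test, 26 with the Xist covariate, 8 in set B alone, 569 in set C alone, 29 without the set term, 73 without the libraries rich in adrenal cortex markers, and 30 to 53 with each library left out. In the Flcn/Tfeb cross, 0 genes were called, or 1 in a fit of all 17 libraries of set A and 0 to 1 with each library left out. With each library left out, the log2 fold changes there ran from -1.28 to 0.10 for Prss35 (above 0 without control replicate 1), from -0.49 to 0.26 for Trabd2b (above 0 without control replicate 3) and from -0.014 to 0.57 for Cdo1 (below 0 without DKO replicate 4), and the cause was not tested. Adjusted p in edgeR or DESeq2 was at least 0.50 over the alternatives of the 6 genes in this cross. Same-numbered libraries of a cross share only a number, with correlations of their deviations from -0.32 to 0.31, and the replicate block changed the calls from 62 to 48, from 0 to 0 and from 48 to 2, with Cdo1 at -0.047 in the Flcn/Tfeb cross. Depth limits Prss35, Mtus2 and Syt4, which have under 60 counts in every library.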
